A study of Mus musculus with 2 samples.

Results

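Complex I genes were taken as the genes whose symbol starts with Nduf and that have a transcript annotated as protein_coding. This gave 46 of the 55536 genes in the deposited tables, of which 38 were subunits (Ndufa, Ndufb, Ndufc, Ndufs and Ndufv) and 8 were assembly factors (Ndufaf). A further 5 genes with an Nduf symbol had no such transcript. The tissue, which the labels call a layer of hippocampus without saying which layer, came from female B6CASTF1/J mice aged 18 to 20 months, a cross of the C57BL/6J and CAST/EiJ strains, with no treatment in the labels. Total RNA was depleted of ribosomal RNA and sequenced in 2 libraries of 300 ng input each, numbered replicates 1 and 2, which form 1 group. Both libraries carry the same donor label and separate biosample labels, so they may or may not stem from different animals, and the spread between them may be technical. With 1 group there was no contrast to test, and no p-value is given. Errors are the SD over both libraries (n = 2).

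Complex I, NADH:ubiquinone oxidoreductase, is the entry point for electrons from NADH into the respiratory chain of mitochondria. Its peripheral arm holds the N module, which oxidises NADH, and the Q module, which reduces ubiquinone. Its membrane arm, the P module, pumps protons and contains the subunits encoded by mitochondrial DNA. Core subunits carry out the reaction, accessory subunits surround them, and assembly factors join the pieces without staying in the finished enzyme. Neurons depend heavily on respiration, and loss of complex I function is a known cause of encephalopathy.

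Values are TPM (read counts divided by effective transcript length and scaled to a total of 1000000 in each library) from a table with the column layout of RSEM, unless the other deposited quantification, with the column layout of kallisto, is named. They are called the RSEM and kallisto layouts, or RSEM and kallisto. Reads assigned to genes came to 35358099 for replicate 1 and 36307276 for replicate 2, and complex I genes held 60150 and 62260 of them. The tissue label was checked against marker genes. All 5 excitatory neuron markers and all 7 hippocampal field markers were detected, here meaning 1 TPM or more in each library. The summed level of 5 oligodendrocyte markers was 1128 and 816 TPM in replicates 1 and 2. Other lists whose sum moved between libraries were choroid plexus (summed 159 and 55.7 TPM, 3 of 5 markers detected), meningeal fibroblast (28.2 and 58.4 TPM, 4 of 5 detected) and erythroid (345 and 521 TPM, 5 of 5 detected). The choroid plexus sum was mostly Ttr (150 and 49.1 TPM), and its marker Kcnj13 alone was higher in replicate 2 (1.10 and 1.44 TPM). No marker of these lists was at 0. The part of these cells in the values below was not tested, and in bulk tissue fewer cells of a type and less RNA per cell cannot be told apart.

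Every complex I gene was detected, and subunits stood several-fold above assembly factors. All 46 genes passed the 1 TPM minimum in each library. The median subunit level was 84.2 TPM for replicate 1 and 82.8 TPM for replicate 2 (83.5 ± 0.951). The median assembly factor level was 16.5 and 13.8 TPM (15.1 ± 1.93). The subunit median was therefore 5.10 times the assembly factor median in replicate 1 and 6.01 times in replicate 2 (5.56 ± 0.644). For scale, the median detected protein-coding gene stood at 14.7 and 14.1 TPM. The ranges of both classes overlapped only through the low end of the subunits. In replicate 1 the highest assembly factor lay above 1 subunit, Ndufa4l2, and in replicate 2 above 2, Ndufa4l2 and Ndufb4.

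**Figure D1:**
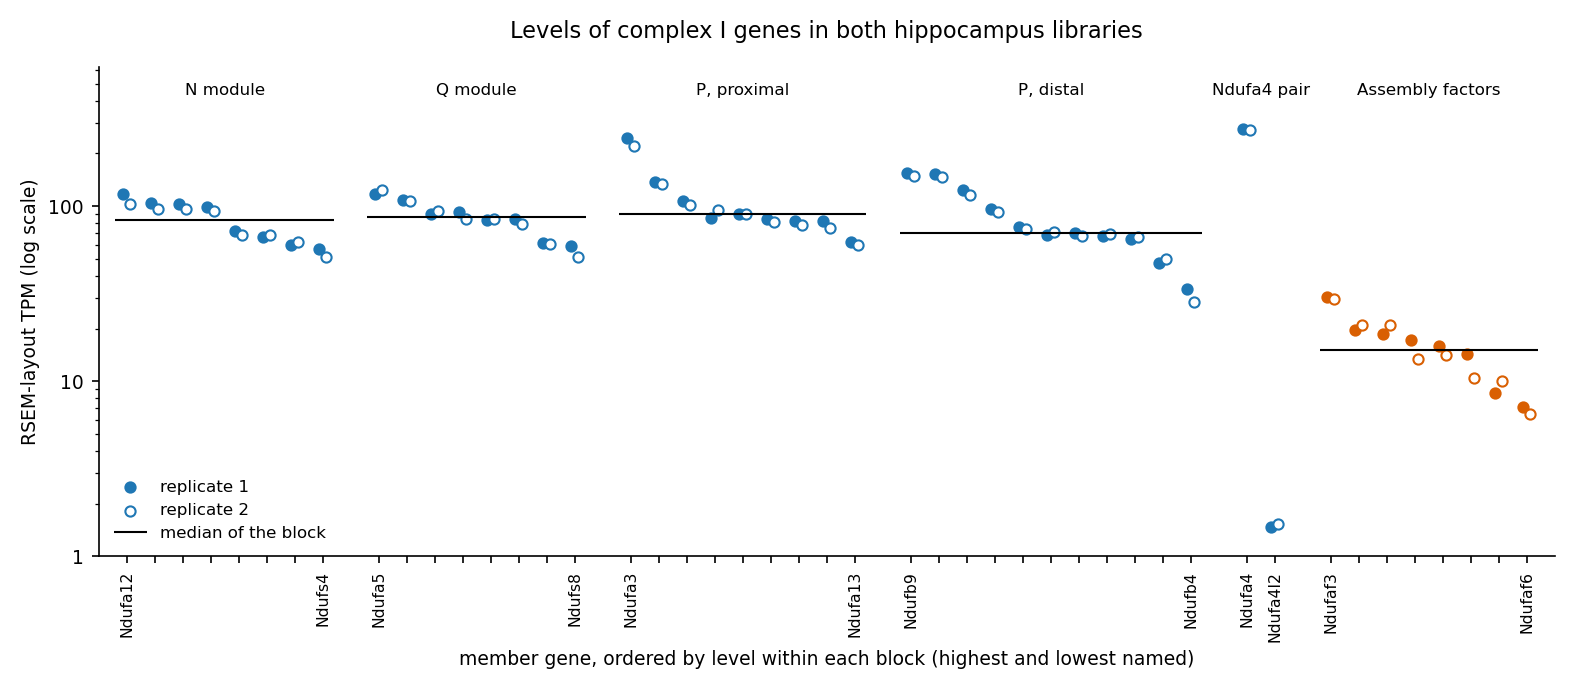
TPM in the RSEM layout (log scale) for each of the 46 complex I genes, grouped by module and ordered by level, with the highest and lowest gene of each block named, filled points for replicate 1, open points for replicate 2 and a line at the median of the mean levels of each block. Assembly factors sit between 6.48 and 30.3 TPM, and all subunits but Ndufa4l2 sit at 28.5 TPM or above.

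Ndufa4 was the most abundant gene of the set. Its level was 274 TPM in both libraries (274.1 ± 0.410 over both), at the 98.7th and 98.8th percentile of detected protein-coding genes. It lies at chr6:11900292-11907497 (mm10, minus strand). Its protein was first described with complex I and is now known as a component of cytochrome c oxidase, complex IV. Its paralogue Ndufa4l2, known from the response to low oxygen, was the least abundant gene of the set at 1.46 and 1.52 TPM, which rests on 31 and 32 counts. Leaving out this pair, the highest and the lowest subunit, cannot change the subunit median by construction.

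Among subunits placed in the modules of the enzyme, accessory subunits of the membrane arm led in the RSEM layout. Ndufa3, a small membrane-arm subunit, had 244 and 221 TPM (232 ± 16.2). Gene levels sum all transcripts, and those not annotated as protein_coding took 93.6% and 93.1% of Ndufa3. Such transcripts took 1.04% and 0.87% of Ndufb9, and 23.7% and 21.8% of Ndufb8. Ndufb9 followed at 154 and 148 TPM (151 ± 4.26) and Ndufb8 at 153 and 146 TPM (149.5 ± 4.84), both in the distal part of the membrane arm. Ndufb9 was the higher of the pair in each library. Their means differed by less than their spread between libraries, and no order of Ndufb9 and Ndufb8 is claimed in this layout. The order was another in the kallisto layout. There Ndufb8 had 357 and 371 TPM and Ndufb9 284 and 287 TPM, both above Ndufa3 at 209 and 234 TPM. Ndufa5 (245.5 and 269 TPM) was also above Ndufa3.

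Ndufc1, also of the membrane arm, had 137 and 134 TPM (135 ± 1.91). Ndufa5, an accessory subunit of the Q module, had 117 and 124 TPM (120 ± 4.41). Ndufab1, the mitochondrial acyl carrier protein, had 123 and 116 TPM (119.5 ± 5.57). Ndufa12, an accessory subunit of the N module, had 118 and 103 TPM (110.5 ± 10.3). Ndufa10, a membrane-arm subunit related to nucleoside kinases, had 107 and 101 TPM (104.4 ± 4.24). Transcripts not annotated as protein_coding took 64.1% and 65.05% of Ndufc1, 75.9% and 73.3% of Ndufa5, and 69.6% and 64.8% of Ndufab1. They took 69.8% and 68.3% of Ndufa10, but 0.98% and 1.7% of Ndufa12. From Ndufa5 to Ndufa10 the ranges of neighbours overlapped, and Ndufa12 had the widest spread. Across the whole order of 46 genes, 31 of the 45 neighbouring pairs differed by no more than the larger SD of the pair.

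The 7 nuclear core subunits, most of which bind the flavin or iron-sulphur clusters or form the ubiquinone site, lay near the other subunits. Their median was 92.0 and 93.5 TPM, against 83.4 and 79.4 TPM for the 31 other subunits. In the kallisto layout these medians were 159.7 and 158 TPM against 144.6 and 159.9 TPM, so their order turned in replicate 2. Ndufs7, which takes part in the ubiquinone-binding site, had 92.0 and 84.6 TPM. Ndufv1, which binds NADH and the flavin, had 103.7 and 96.6 TPM, close to its iron-sulphur partner Ndufv2 at 99.4 and 93.5 TPM. Ndufs3, a scaffold of the Q module, had 90.8 and 94.4 TPM.

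The iron-sulphur proteins Ndufs1 and Ndufs8 were the lowest of the core in replicates 1 and 2. Ndufs1, the largest core subunit, had 60.2 and 62.0 TPM, and Ndufs8 had 59.4 and 51.1 TPM. Both lay below Ndufs7, Ndufs3, Ndufv1 and Ndufv2 in each library.

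Medians by module were close to each other. The N module had 85.7 and 80.9 TPM (8 genes), the Q module 87.3 and 84.6 TPM (8 genes), and the proximal part of the membrane arm 86.0 and 90.3 TPM (9 genes). The distal part had 70.2 and 71.4 TPM (11 genes), the lowest of these medians in the RSEM layout. This rank did not hold in the kallisto layout, where the distal part had 157 and 175 TPM, above the proximal part (145 and 142 TPM) and the Q module (148 and 153 TPM). In the RSEM layout the distal part also held the lowest subunits other than Ndufa4l2. Ndufb3 had 47.4 and 49.98 TPM and Ndufb4 had 33.6 and 28.5 TPM. In the kallisto layout they had 103 and 112 TPM and 183 and 178 TPM, and Ndufa2 (84.1 and 90.7 TPM) and Ndufs8 (91.9 and 82.5 TPM) were among those below them. The value of Ndufb4 depends in part on how reads were assigned to it and to a near copy of the gene, given further on.

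Most of the 7 subunits encoded by mitochondrial DNA, the proton-pumping core of the membrane arm, were far above the nuclear ones in the RSEM layout. The median of all 7 was 1746 and 1847 TPM, which was 20.8 and 22.3 times the median nuclear subunit. mt-Nd1 was the highest at 3144 and 3194 TPM and mt-Nd6, which is encoded on the opposite strand from the others, the lowest at 167 and 176 TPM. Between these lay mt-Nd4 (2158 and 2205 TPM), mt-Nd4l (2149 and 2318 TPM), mt-Nd2 (1746 and 1847 TPM), mt-Nd3 (1577 and 1571 TPM) and mt-Nd5 (1236 and 1329 TPM). The level of mt-Nd6 was below those of the nuclear genes Ndufa4 (274 TPM in both libraries) and Ndufa3 (244 and 221 TPM). In the kallisto layout mt-Nd4l was the lowest of the 7, at 22.3 and 25.02 TPM.

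Assembly factors spanned a narrower range than subunits. Ndufaf3, which with Ndufaf4 helps to build the Q module, was the highest at 30.3 and 29.4 TPM (29.8 ± 0.622) and lies at chr9:108565537-108567434 (mm10, minus strand). Ndufaf5, an enzyme that hydroxylates an arginine of Ndufs7, had 19.6 and 20.98 TPM (20.3 ± 1.00). Ndufaf7, a methyltransferase, had 18.5 and 20.9 TPM (19.7 ± 1.73). Ndufaf5 and Ndufaf7 were not separated beyond their spread. Ndufaf4 had 17.1 and 13.4 TPM (15.3 ± 2.62), and Ndufaf8, a partner of Ndufaf5, had 15.9 and 14.1 TPM (15.0 ± 1.23).

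The remaining 3 factors were lower. Ndufaf1, which takes part in building the membrane arm, had 14.2 and 10.4 TPM (12.3 ± 2.67). Ndufaf2, a paralogue of the subunit Ndufa12, had 8.52 and 10.03 TPM (9.28 ± 1.07). Ndufaf6 had 7.09 and 6.48 TPM (6.79 ± 0.431) and was the lowest factor in both libraries.

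Most assembly factors that do not carry an Nduf symbol were in the range of those that do. Of 9 listed genes, 8 were matched, and Coa1 was not matched and is not analysed here. Their median was 13.01 and 11.8 TPM. Ecsit (20.7 and 18.96 TPM) and Acad9 (18.7 and 15.7 TPM), which work with Ndufaf1, and Dmac1 (20.2 and 18.6 TPM) were the highest. Foxred1 (13.4 and 12.4 TPM), Tmem126b (12.7 and 11.3 TPM) and Timmdc1 (11.9 and 11.3 TPM) followed. Tmem186 (4.64 and 4.87 TPM) and Nubpl, which delivers iron-sulphur clusters (2.17 and 1.94 TPM), were the lowest, both below Ndufaf6.

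Complex I genes differed little between the libraries. Counts were scaled with TMM factors, and 45 of the 46 genes had a mean count of at least 50 (Ndufa4l2 did not). Only 1 gene was over 1.2-fold higher in replicate 2, against 5.62% of the 14307 genes with such a count. Likewise, 1 was over 1.2-fold higher in replicate 1, against 4.75%. None was over 2-fold apart, against 0.384%. The median log2 ratio of replicate 2 over replicate 1 was 0.0049, with 27 genes higher in replicate 2 and 18 in replicate 1. The median size of the log2 ratio, without its sign, was 0.042 for these 45 genes and 0.063 for detected protein-coding genes. Their median mean count was 1060 and that of the protein-coding genes 894.

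Both genes beyond 1.2-fold were assembly factors of low count. Ndufaf2 (chr13:108002715-108158623, mm10, minus strand) had 126 counts in replicate 1 and 157 in replicate 2, which was 1.22-fold higher in replicate 2 after scaling, with an exact 95% interval of 0.956 to 1.55. Ndufaf1 (chr2:119655446-119662827, mm10, minus strand) had 422 and 354 counts, which was 1.22-fold higher in replicate 1 with an interval of 1.06 to 1.41. The intervals are binomial, conditional on the sum of both counts, and cover counting error only. The interval of Ndufaf2 includes equality. That of Ndufaf1 does not, with no adjustment for the 45 genes looked at.

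Ndufaf4, with 733 and 651 counts, came next at 1.15-fold higher in replicate 1 (1.04 to 1.28). Among subunits the widest ratios were Ndufa11, with 921 and 1069 counts and 1.13-fold higher in replicate 2 (1.04 to 1.24), and Ndufs8, with 1068 and 988 counts and 1.11-fold higher in replicate 1 (1.01 to 1.21). Assembly factors had a larger median size of ratio (log2 0.11) than subunits (0.041), and also fewer reads (median mean count 472 against 1378). On the deposited TPM scale 32 of the 46 genes were higher in replicate 1, close to the 68.8% of detected protein-coding genes, so that direction was not particular to complex I. All 7 mitochondrially encoded subunits were higher in replicate 2 on scaled counts, by a log2 ratio of 0.06 to 0.17 (median 0.13).

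**Figure D2:**
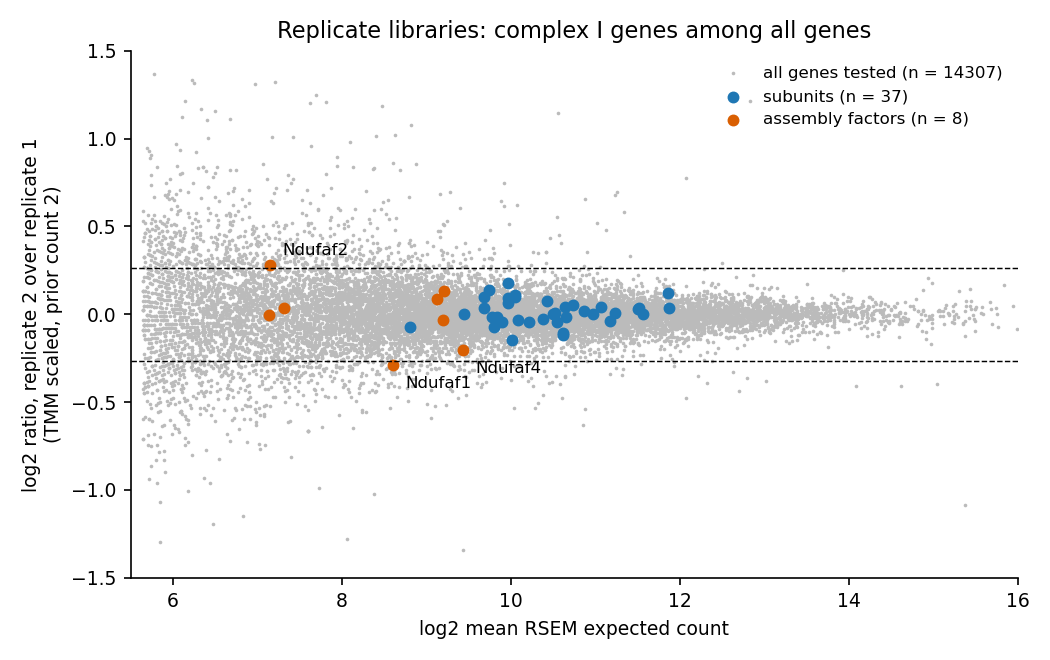
Log2 ratio of replicate 2 over replicate 1 (TMM-scaled counts, prior count 2) against the log2 mean RSEM count for all 14307 genes whose mean count was 50 or more, with subunits in blue and assembly factors in orange. Dashed lines mark 1.2-fold, which 2 assembly factors pass, and 45 other genes lie outside the axes.

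Some complex I genes have a processed pseudogene, an intronless copy inserted elsewhere in the genome. The deposited quantifications gave different numbers of reads to gene and copy, and the totals of both differed too. Of the 46 genes, 11 had at least 1 annotated processed pseudogene with a stretch of at least 100 bases at 95% identity or more, 13 copies in all. Of these copies, 4 were given more than 3 reads in both libraries of a layout. Ndufb4 has the closest copy. Its coding sequence of 390 bases, which lies in 3 exons at chr16:37647170-37654453 (mm10, minus strand), was identical over its whole length to the pseudogene Ndufb4c at chr15:73809507-73809896 (mm10, minus strand). Alleles of the CAST/EiJ parent were not compared, here or for the pairs below. Coding bases 1 to 300, from the GENCODE M21 transcripts, are shown because both genes share every letter of them.
Ndufb4 and Ndufb4c: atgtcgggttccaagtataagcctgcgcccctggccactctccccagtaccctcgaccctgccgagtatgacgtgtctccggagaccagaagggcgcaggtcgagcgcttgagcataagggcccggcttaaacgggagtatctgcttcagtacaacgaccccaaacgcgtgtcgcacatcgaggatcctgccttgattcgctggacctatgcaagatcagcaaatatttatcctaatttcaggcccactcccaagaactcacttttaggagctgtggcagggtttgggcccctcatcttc

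In the RSEM layout Ndufb4c held more reads than Ndufb4 itself. Ndufb4 had 451 counts in replicate 1 and 440 in replicate 2, and Ndufb4c had 767 and 711. In the kallisto layout Ndufb4 had 733 and 731 counts and Ndufb4c was listed at 0 in both libraries. In the compared sequences, reads that lie inside the coding sequence cannot be told apart, so the level of Ndufb4 depends in part on how each program assigned them. Gene and copy together held 1218 and 1151 reads under RSEM and 733 and 731 under kallisto, so the total differed as well as its division. Ndufb4 alone stood at 33.6 and 28.5 TPM, and together with Ndufb4c at 137 and 118 TPM in the RSEM layout. The sum would place it among the 10 highest subunits of the RSEM layout instead of the 3 lowest. That rank adds TPM over unlike lengths, 390 bases for Ndufb4c and 645 for Ndufb4, which raises the part of the copy. A sum at 1 common length was not made. In the kallisto layout Ndufb4 alone had 183 and 178 TPM.

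Ndufs5, a subunit of the membrane arm facing the intermembrane space, showed the same arrangement with fewer reads. Its pseudogene BC002163 (chr16:42955631-42955949, mm10, plus strand) differed from the coding sequence of Ndufs5 (chr4:123712710-123718202, mm10, minus strand) at 2 of 319 compared bases, T81C and A105G, counted from 1 at the start of the coding sequence with the base of Ndufs5 named before the position. Coding bases 56 to 130 are shown with both differences in capitals.
Ndufs5: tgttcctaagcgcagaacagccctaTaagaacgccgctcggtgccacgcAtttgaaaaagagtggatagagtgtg
BC002163: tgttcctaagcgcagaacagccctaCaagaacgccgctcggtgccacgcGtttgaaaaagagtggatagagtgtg
BC002163 held 234 and 241 counts in the RSEM layout but was listed at 0 in the kallisto layout. Ndufs5 had 904 and 882 counts in the former and 998 and 998 in the latter.

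For Ndufab1 the direction was the opposite. Its pseudogene Gm4459 (chr7:139659688-139660155, mm10, minus strand) differed from the coding sequence of Ndufab1 (chr7:122085403-122101886, mm10, minus strand) at 1 of 468 compared bases, G137A. Coding bases 112 to 162 are shown with the difference in capitals.
Ndufab1: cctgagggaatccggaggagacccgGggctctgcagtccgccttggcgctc
Gm4459: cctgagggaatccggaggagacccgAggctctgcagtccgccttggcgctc
Gm4459 held 54 and 28 counts under RSEM and 195 and 225 under kallisto, while Ndufab1 had 1324 and 1332 in the former and 863 and 796 in the latter. Gm15920, a copy of Ndufa12, held 213 and 216 counts under RSEM and 165 and 170 under kallisto. It differed from Ndufa12 by A147G and T426C over 402 compared coding bases. The other 9 copies had at most 4 counts in any library or layout. Summed with their copies, Ndufs5 (1138 and 1123 against 998 and 998) and Ndufab1 (1378 and 1360 against 1058 and 1020) held fewer reads under kallisto, like Ndufb4. Ndufa12 with its copy held more under kallisto (2079 and 1991, against 1836 and 1748 under RSEM).

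**Figure D3:**
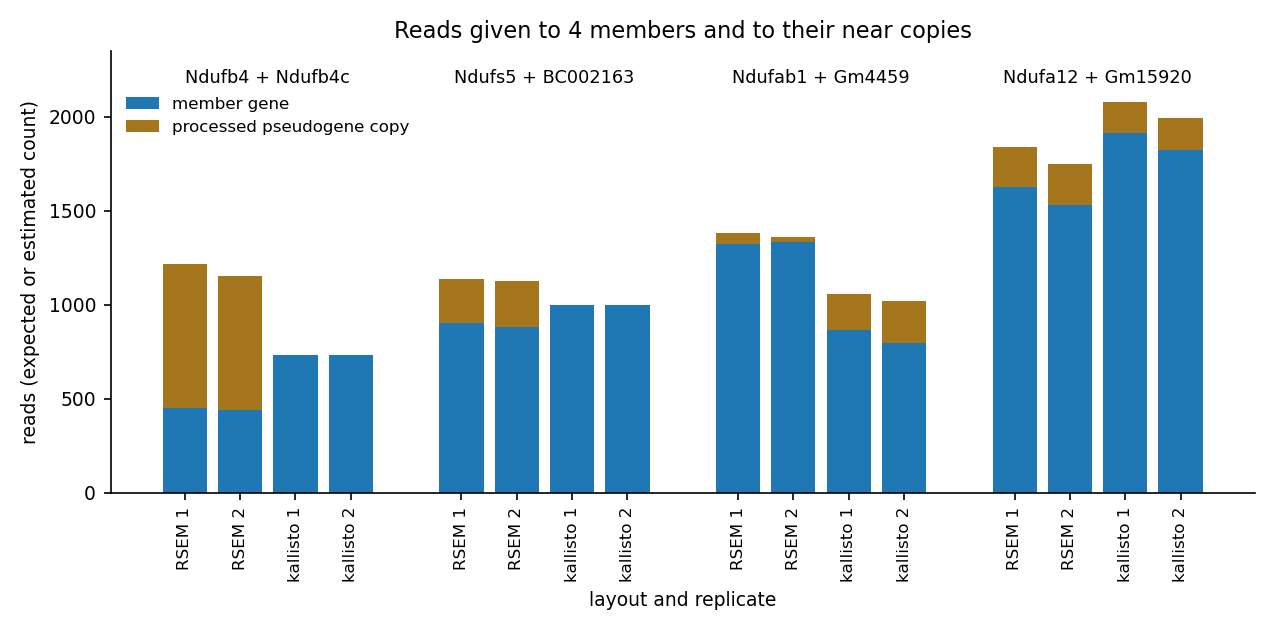
Reads (RSEM expected counts or kallisto estimated counts) given to 4 complex I genes, in blue, and stacked on them those given to their processed pseudogene copy, in brown, for each layout and replicate. Ndufb4c takes 767 and 711 reads under RSEM and 0 under kallisto.

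Across all complex I genes the levels in both layouts were correlated, with the exceptions named. Kallisto-layout TPM was higher for most genes, with a median of 1.64 times the RSEM-layout TPM in replicate 1 and 1.71 times in replicate 2 over 12677 nuclear protein-coding genes that passed 1 TPM in each layout and library. The log2 ratios given here for TPM are relative to that median. Complex I genes had a median of 0.17 in replicate 1 and 0.18 in replicate 2, so they were slightly higher in the kallisto layout than the median gene. Spearman's rho between the layouts was 0.84 over the 46 genes, as a description of genes measured in the same libraries.

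In the kallisto layout, 3 genes were over 1.5-fold higher in both libraries after centring, against 3.27% of the protein-coding genes. These were Ndufb4 (log2 ratio 1.73 and 1.87), Ndufs5 (0.64 and 0.69) and Ndufb5 (0.60 and 0.64). In the other direction, 1 gene passed, Ndufa3 (-0.93 and -0.69), against 0.994%. On TPM summed with their pseudogenes, Ndufb4 (-0.29 and -0.18) and Ndufs5 (0.04 and 0.08) were within 1.5-fold. On TPM 2 genes then remained beyond it, Ndufb5 and Ndufa3. On counts, Ndufb4 summed with Ndufb4c stayed lower under kallisto (733 and 731, against 1218 and 1151 under RSEM). Without their copies, the centred log2 ratio of counts was 0.59 and 0.63 for Ndufb4 and 0.03 and 0.07 for Ndufs5. Both genes were thus nearer the median gene on counts than on TPM, and the reason was not tested. On TPM, next among the higher genes came Ndufb8 (0.51 and 0.57), Ndufaf3 (0.58 and 0.51) and Ndufv2 (0.54 and 0.51). Next among the lower genes came Ndufa1 (-0.42 and -0.76), Ndufab1 (-0.53 and -0.59), Ndufa2 (-0.48 and -0.36) and Ndufaf4 (-0.59 and -0.24). Ndufab1 summed with Gm4459 lay at -0.03 and 0.04. Ndufb5 (chr3:32736990-32751566, mm10, plus strand) had no such copy, and its raw counts differed little between layouts (1554 and 1639 under RSEM, 1415 and 1473 under kallisto).

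Complex I transcripts are short, and reads from short transcripts were counted differently by the layouts. The median gene length was 695 bases for complex I genes and 2546 bases for detected protein-coding genes. Fewer reads were given to short genes in the kallisto layout. For 28 of the 46 genes the kallisto count was under the RSEM count in both libraries, against 12.1% of protein-coding genes. In the 23 genes under 700 bases the median ratio of kallisto to RSEM counts was 0.770 in replicate 1 and 0.767 in replicate 2. It was 1.02 and 1.03 in the 15 genes of 700 to 1200 bases, and 1.01 and 0.999 in the 8 longer genes. On centred TPM the median log2 ratio was 0.16 and 0.18, 0.19 and 0.21, and -0.06 and 0.12 in these classes, so its sign differed between the libraries for the longest genes.

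The shortest class also had the lowest ratio in protein-coding genes as a whole and in the ERCC spike-ins, synthetic RNAs that have a single form. Protein-coding genes had a median ratio of 0.886 and 0.894 under 700 bases (352 genes), 0.998 and 0.991 from 700 to 1200 bases, and 1.09 and 1.08 over 1200 bases. They rose through all 3 classes, where complex I genes did not rise beyond the middle one. The 10 spike-ins under 700 bases with 50 or more reads on average had a median of 0.553 and 0.534, and the 21 spike-ins of 700 to 1200 bases had 0.777 and 0.770. Over complex I genes Spearman's rho between length and the centred log2 ratio was 0.47 for counts and 0.04 for TPM. The effective length, which TPM divides by, was set shorter in the kallisto layout: the full length less 335 or 333 bases for long transcripts, against 99 bases in the RSEM layout.

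In the 6 genes with a single annotated transcript, reads are not divided among isoforms. The shortest of them, Ndufa1 and Ndufa2, had the lowest ratios of kallisto to RSEM counts. Ndufa1, on the X chromosome (chrX:37187588-37191163, mm10, minus strand) and the shortest of these 6 at 419 bases, had 689 and 707 counts under RSEM and 236 and 188 under kallisto. Its effective length was 320 bases in the former and 120 and 118 bases in the latter. Its TPM was 84.4 and 81.0 under RSEM and 103.5 and 81.8 under kallisto. Ndufa2, at 572 bases, had 869 and 879 counts under RSEM and 384 and 425 under kallisto. Ndufa13, a membrane-arm subunit also known from cell death signalling and the longest of the 6 at 1251 bases, had 1826 and 1893 counts against 2004 and 2065. The count ratio was 0.342 and 0.266 for Ndufa1, 0.442 and 0.484 for Ndufa2 and 1.10 and 1.09 for Ndufa13. The order by length was not strict, since Ndufa8 (861 bases) was at 0.874 and 0.870 and the shorter Ndufb3 (763 bases) at 1.04 and 1.03.

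The shortest mitochondrially encoded subunit showed the widest gap. mt-Nd4l, of 297 bases, had 10858 and 12515 counts under RSEM and 29 and 32 under kallisto. Its TPM was 2149 and 2318 in the former and 22.3 and 25.02 in the latter. For mt-Nd3, of 348 bases, the counts were 10021 and 10666 under RSEM and 3888 and 4326 under kallisto. The TPM of mt-Nd3 was higher under kallisto (2388 and 2674, against 1577 and 1571 under RSEM), unlike that of mt-Nd4l. For mt-Nd1, of 957 bases, the counts were 68822 and 74741 against 58790 and 63861.

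On scaled counts in place of TPM, 10 complex I genes were over 1.5-fold lower in the kallisto layout in both libraries, against 1.24% of protein-coding genes, and 1 was higher (Ndufb4), against 0.686%. All 10 had a length under 700 bases.

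**Figure D4:**
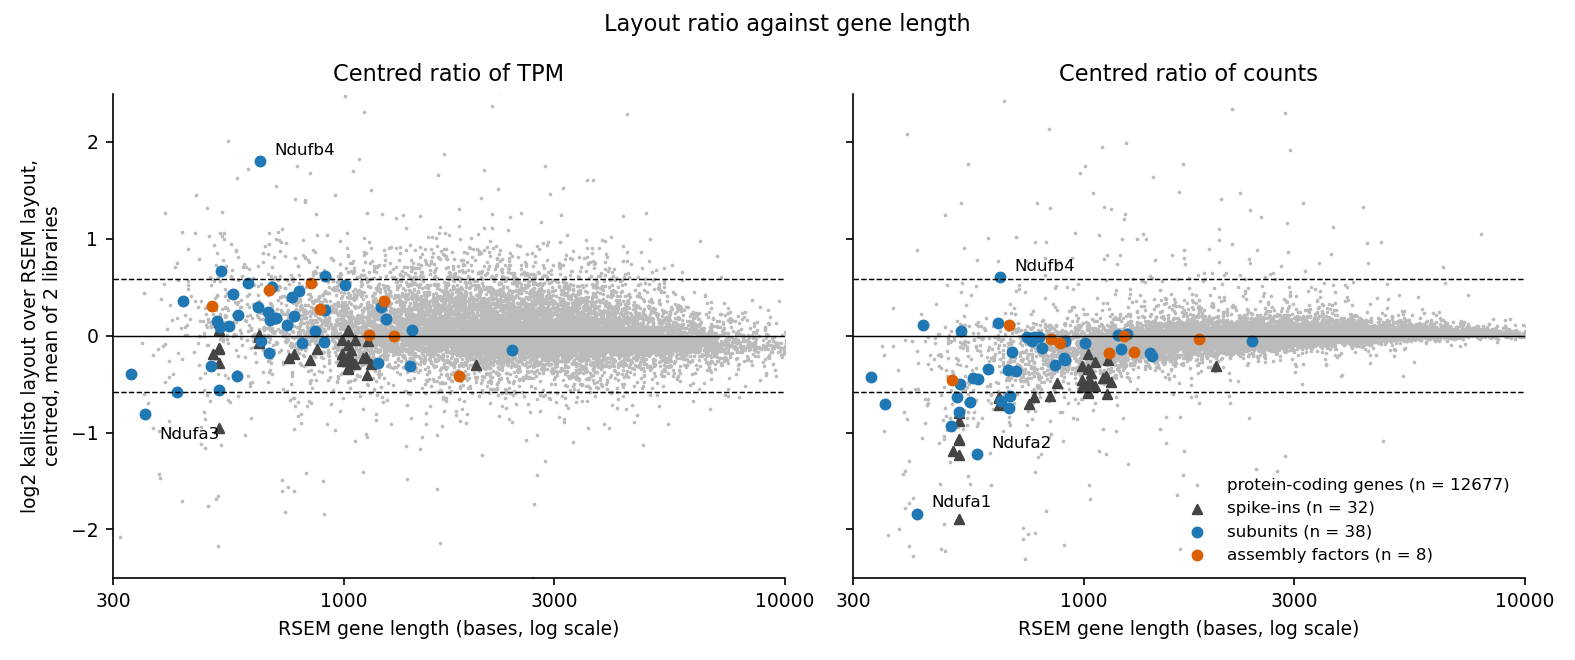
Centred log2 ratio of the kallisto layout over the RSEM layout, mean of both libraries, against gene length (log scale), for TPM on the left and counts on the right, with 12677 protein-coding genes in grey, 32 spike-ins as triangles, subunits in blue and assembly factors in orange. Dashed lines mark 1.5-fold, most complex I genes under 700 bases fall below the zero line for counts while their median lies above it for TPM, Ndufb4 stands at the top, and 97 and 95 protein-coding genes lie outside the axes.

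Several complex I genes were led by a transcript that is not annotated as protein_coding. Of the 46 genes, 40 had more than 1 annotated transcript. In the RSEM layout 8 had a leading transcript (the one with the largest share of the gene's TPM) of another class, against 6.66% of protein-coding genes. In the kallisto layout 12 did, against 8.51%. The leading transcript was of another class in both layouts for 7 genes: Ndufa3, Ndufa5, Ndufab1, Ndufaf4, Ndufb4, Ndufc1 and Ndufs4.

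Ndufa5-204, a processed_transcript of 453 bases, took 74.1% and 69.7% of Ndufa5 under RSEM and 72.4% and 73.9% under kallisto. Ndufs4-204, annotated as a target of nonsense-mediated decay (686 bases), took 41.6% and 51.0% of Ndufs4, an accessory subunit whose loss causes Leigh syndrome, in the former and 50.5% and 57.6% in the latter. Ndufb4-202, a retained_intron transcript of 465 bases, took 67.8% and 59.7%, and 87.3% and 87.1%. Ndufaf4-202, a processed_transcript of 2358 bases, took 50.01% and 57.7%, and 88.9% and 75.2%. By share of TPM, both layouts and both libraries named the same transcript in these 4 genes. By share of counts this held for Ndufaf4 only, and not for Ndufa5, Ndufs4 and Ndufb4.

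In other genes the layouts chose different transcripts. The leading transcript by mean share was the same in both layouts for 25 of the 40 genes with several transcripts, against 76.5% of protein-coding genes with several. One transcript led in both libraries and both layouts for 23 of the 40, or 29 with the 6 single-transcript genes. The RSEM layout named the same leader in both libraries for 45 of 46 genes, and the kallisto layout for 39. Ndufa3 had 92.5% and 92.3% on Ndufa3-204, a decay-class transcript of 343 bases, in the RSEM layout, where the kallisto layout gave that transcript 22.04% and 44.9% and Ndufa3-205, a retained_intron transcript of 782 bases, 43.3% and 35.6%. Ndufc1 had 58.7% and 58.4% on Ndufc1-203 (311 bases) in the RSEM layout, which was at 0% in the kallisto layout, where Ndufc1-202 (500 bases) took 97.0% and 96.7%. Ndufa7 had 89.0% and 89.1% on the coding transcript Ndufa7-201 under RSEM and 16.8% and 8.18% under kallisto.

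The leader also differed for Ndufs7 (Ndufs7-201 at 74.8% and 72.6% under RSEM, 9.87% and 2.61% under kallisto), Ndufs8 (Ndufs8-205 at 84.7% and 86.5%, then 23.6% and 20.1%) and Ndufa9 (Ndufa9-203 at 95.9% and 96.3%, then 37.5% and 35.1%). For these core and Q module genes both leaders are protein_coding. The others were Ndufa4, Ndufa4l2, Ndufab1, Ndufaf1, Ndufaf7, Ndufaf8, Ndufb2, Ndufb5 and Ndufv1. The least dominant leaders in the RSEM layout were Ndufa10-201 (30.2% and 31.7%), Ndufab1-208 (34.4% and 32.7%), Ndufaf7-201 (36.2% and 34.0%), Ndufaf3-203 (41.0% and 41.5%) and Ndufaf1-203 (48.5% and 42.3%).

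**Figure D5:**
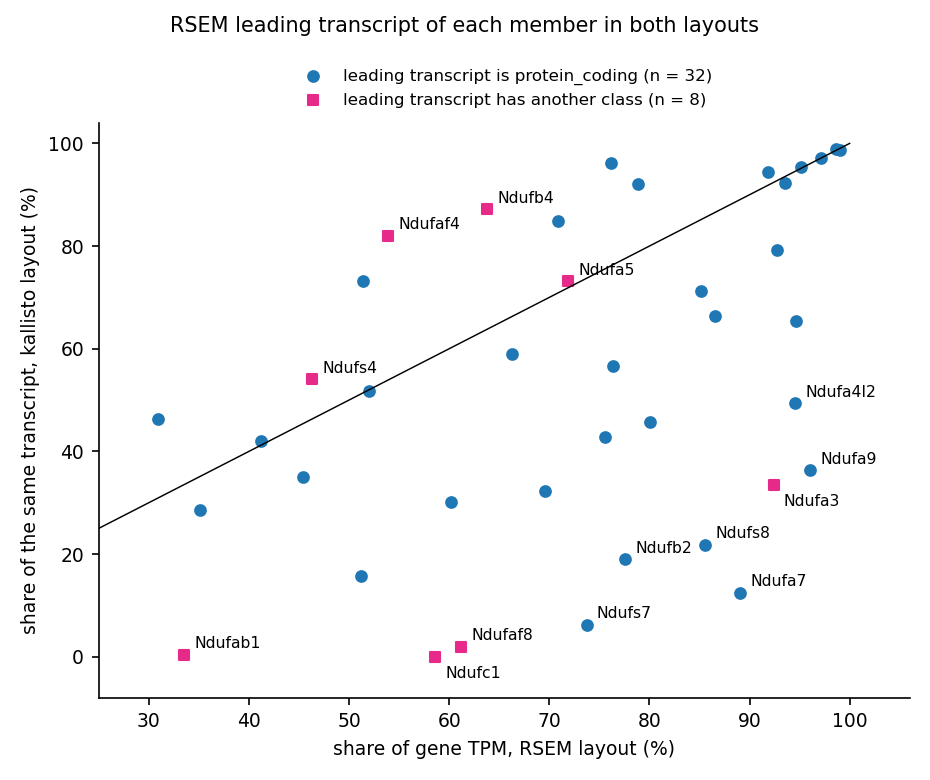
Share of the gene's TPM taken by the RSEM leading transcript in the RSEM layout (horizontal axis, percent) and by the same transcript in the kallisto layout (vertical axis, percent), mean of both libraries, for the 40 complex I genes with more than 1 transcript. Squares are the 8 genes whose leading transcript is not protein_coding, and points far below the line, such as Ndufc1 and Ndufa7, are genes where the layouts chose different transcripts.

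The genes are spread over 17 chromosomes, with 6 on chromosome 17 and 2, Ndufa1 and Ndufb11, on X. Another annotated gene overlapped 22 of them, on the opposite strand for 18. Whether the counting used strand is not given in the sources used here, so reads in those overlaps are uncertain. The largest such neighbour was Braf, opposite Ndufb2, with 7369 and 7937 counts, against 1083 and 1086 for Ndufb2.

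Promoters of complex I genes are known targets of factors that control mitochondrial genes, including NRF1, GABPA, ERR-alpha (Esrra) and YY1. RefSeq promoter windows (build GRCm38.p6, 250 bases before to 50 after the start site) were found for 40 of the 46 genes. The NRF1 motif GCGCANGCG was in 10 of them on either strand, or 25%, against 14.1% of 9931 detected protein-coding genes and 6.49% of all 27025 windows. The YY1 motif ATGGCGG was in 9, or 22.5%, against 8.42% and 4.21%. The GABPA motif CCGGAAG was in 6, or 15%, against 17.9% and 9.14%. The ERR-alpha motif AAGGTCA was in 3, or 7.5%, against 2.95% and 4.65%. Median GC content was 59.2% for complex I windows, 61.3% for detected genes and 52.7% for all. No test was made of these shares, and a match describes the letters only.

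The genes with an NRF1 match were Ndufa5, Ndufa6, Ndufa8, Ndufa11, Ndufb4, Ndufb10, Ndufs5, Ndufs6, Ndufaf4 and Ndufaf5. Ndufaf4 is shown because its match lies before the start site and no annotated exon falls in the printed bases. They are chr4:24897833-24898082 (GRCm38.p6, plus strand), which end just before the start site, with the matched letters in capitals.
Ndufaf4: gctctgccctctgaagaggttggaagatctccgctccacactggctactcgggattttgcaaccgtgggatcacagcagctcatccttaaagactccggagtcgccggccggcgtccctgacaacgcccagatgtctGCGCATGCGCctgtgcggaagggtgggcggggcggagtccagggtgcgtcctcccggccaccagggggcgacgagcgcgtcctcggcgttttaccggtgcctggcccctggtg
The motif is nearly its own reverse complement, so the capitals hold 2 overlapping matches, 1 on each strand, which begin 113 and 112 bases before the start site.

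The genes of these factors were expressed at levels near those of the assembly factors. Nrf1 had 9.74 and 9.05 TPM, Gabpa 10.96 and 10.01 TPM, its partner Gabpb1 7.93 and 7.02 TPM, Esrra 24.1 and 21.97 TPM and Yy1 22.1 and 21.4 TPM. Ppargc1a, a coactivator of mitochondrial genes, had 17.1 and 17.6 TPM, and Tfam, which packages and transcribes mitochondrial DNA, 17.9 and 14.6 TPM. On scaled counts 6 of these 7 genes were higher in replicate 1 and Ppargc1a in replicate 2, with log2 ratios between -0.09 and 0.05.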

How the data were processed

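Total RNA of 1 group of 2 hippocampus libraries was analysed from the deposited tables. The authors deposited, per the file headers, an RSEM-layout gene and transcript table with the expected count (an estimated read number that need not be whole), TPM, FPKM, a quartile variation ratio of TPM and each transcript's percent of its gene, and a kallisto-layout transcript table with an estimated count and TPM. The ratio column was read but no result rests on it. Genes were those of GENCODE M21 on mm10, per the submitters' processing notes. The aligner is not given in the sources used here, nor are program versions or the strand setting.

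Expected counts were rounded for ratios and scaled by TMM in edgeR 4.0.16 (R 4.3.3), with a prior count of 2 for log2 ratios. Kallisto transcripts were summed per gene. Spike-ins and entries that name no gene were kept out of library sizes, spike-ins being 0.493% and 0.489% of counts and unnamed entries 2.78 and 6 counts. Pseudogene copies were found with BLAST+ 2.17.0. Python 3.11.15, pandas 2.3.3 and scipy 1.17.1 were used. Genes named in full are the 10 highest and 3 lowest subunits, the nuclear core, all assembly factors, the listed genes of other roles, and those past a threshold or at an extreme of the layout ratio. The values of 1 member are not reported here. Members and lists were chosen with earlier results of these data known. Alternatives were DESeq2 1.42.0 size factors, spike-in totals, other minimums, FPKM, kallisto values and each library alone.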

Additional observations from a re-analysis of the deposited data

How the results depend on the processing

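No paired analysis was possible because both libraries form 1 group. Of 50 alternative values, 33 stayed within the spread between libraries (for counts, within 1.5 times) and 17 moved. Some of the 33 could not move. All 46 members pass 1 TPM, so that filter removes none. Leaving out Ndufa4 and Ndufa4l2 takes the highest and the lowest subunit, which cannot change a median. FPKM and rescaled TPM change the subunit and factor medians by the same factor within a library, so their ratio is fixed. Leaving out a library leaves the value of the other and shows no stability. For a mean over both libraries it lies within that spread by construction. The subunit median was 82.8 to 84.2 TPM, the factor median 13.8 to 16.5 TPM, their ratio 5.10 to 6.01 and the layout median 0.17 to 0.18. The layout medians by length were 0.16 to 0.18, 0.19 to 0.21 and -0.06 to 0.12. The last (over 1200 bases) was -0.06 in replicate 1 and 0.12 in replicate 2 alone. The number over 1.5-fold between layouts was 5 to 6, which is not bound in that way because the main count asks for both libraries. The 6 members between layouts came from replicate 2 alone, against 4 in both. The subunit median was 154 with kallisto-layout TPM, 61.2 with FPKM, 204 with TPM rescaled over nuclear protein-coding genes and 78.3 as a geometric mean. The factor median was 26.9, 11.1 and 37.0 in the 3 units. Their ratio was 5.71 with kallisto-layout TPM and 5.36 with geometric means. With counts in place of TPM the median layout log2 ratio turned to -0.18 and 11 members passed 1.5-fold in place of 4. With a TPM minimum of 5 it was 0.18. Summing members with pseudogene copies, chosen after seeing the data, gave a subunit median of 87.8 TPM, a layout median of 0.13 and 2 members past 1.5-fold. By effective length the layout medians were 0.19, 0.24 and -0.15. At a mean count of at least 200, 1 member was over 1.2-fold apart, since Ndufaf2 is not tested there. Kallisto counts called Ndufaf2 and Ndufa1 in place of Ndufaf1, and deposited TPM Ndufaf1 and Ndufaf4. With deposited TPM the median log2 ratio of replicate 2 over replicate 1 was -0.06, and 0.0045 to 0.021 otherwise. Depth leaves Ndufa4l2, at 31 and 32 counts, with a fold interval of 0.596 to 1.71.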

Other observations

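The 49 nuclear genes of respiratory complexes II to V, matched by symbol, had medians of 135 and 128 TPM in the libraries, above the 84.2 and 82.8 TPM of complex I subunits in both libraries. Of these, 45 were detected. Among the 41 with a mean count of at least 50, 26 were higher in replicate 2 and 15 in replicate 1 on scaled counts, with a median log2 ratio of 0.01. In both libraries complex I genes together held 0.211% and 0.214% of protein-coding counts, mitochondrial genes included.

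Ndufb1-ps, annotated as a long noncoding RNA that starts at a bidirectional promoter (chr12:101968090-101977068, mm10), was outside the set because it has no protein_coding transcript. It had 36.5 and 38.3 TPM, on 420 and 477 counts, above every assembly factor. No gene with the symbol Ndufb1 was matched in the tables. The pseudogenes Ndufs6b and Ndufab1-ps were listed at 0 in both layouts, and Ndufa11b had 2 counts in each library of the RSEM layout.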
